A study of Homo sapiens with 4 samples.

Results

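The regions described are runs of methylated DNA segments that were called in PKCλ/ι-knockout prostate cancer cells and not in control cells. Each run is an unbroken row of neighbouring knockout peaks along an autosome, 8 or more in number, in which no peak shares a base with any control peak. Such a peak is called knockout-only, and the knockout-only peaks that form a run are its members. There were 41 runs with 422 members, out of 290447 autosomal knockout peaks and 558178 peaks in both lists together. The members are 0.145% of the autosomal knockout peaks. For comparison, 23.7% of all autosomal knockout peaks were knockout-only, and 12.0% of autosomal control peaks were control-only by the same criterion.

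The cells were C42B, an androgen-independent line derived from the prostate cancer line LNCaP. They carried either a control guide RNA (sgC, the wild-type group) or a guide against the atypical protein kinase PKCλ/ι (sgPKCl/i, the knockout group). They received no treatment and were harvested 48 h after plating at about 70% confluency. Sheared DNA was immunoprecipitated with an antibody to 5-methylcytosine and sequenced (MeDIP-seq), with 1 immunoprecipitated and 1 input library per genotype. Nothing in the sources used here says whether the knockout cells were a clone or a pool. With 1 library per group there is no replicate check, and no test between genotypes is given. The runs were chosen from the 2 peak lists themselves, so their counts and their lack of control peaks are descriptions.

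5-Methylcytosine in human cells lies mostly at CpG dinucleotides and is copied to the new strand after replication by the maintenance methyltransferase. The antibody pulls down single-stranded fragments in proportion to the methylated cytosines they carry, so CpG-poor DNA gives weak and scattered peaks. In many cancers, long gene-poor and late-replicating stretches of chromosomes hold intermediate and uneven methylation, while CpG-dense elements within them can stay methylated. The methyl group comes from S-adenosylmethionine, which is made by way of the one-carbon cycle that serine feeds. The series placed the loss of PKCλ/ι beside serine and one-carbon metabolism, and the comparison concerns methylated DNA in the presence and absence of the kinase.

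The 2 immunoprecipitates were not equally deep. The caller's lowest local background, which stands for the genome-wide mean pileup of a library and is called the library mean below, was 4.42 fragments in the knockout and 2.92 in the control, a ratio of 1.51. The deeper library is thus the one in which the knockout-only runs were called. When only the most significant knockout peaks were kept, as many as the control list held, 19 runs with 195 members were left, and 186 of those peaks were among the 422. The part of depth in these counts was not tested. A peak missing from the control list is a segment that did not pass the caller, and its methylation level in control cells is unknown.

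The run with most members lay on chromosome 2 from 34917813 to 35655048 (positions in hg19, counted from 1, throughout). It held 22 members over 737 kb, with a median gap of 12.1 kb between neighbours. In order along the chromosome the pileups were 25, 20, 16, 27, 18, 25, 21, 32, 31, 22, 38, 22, 27, 27, 20, 34, 23, 37, 35, 24, 23 and 22 overlapping fragments. No member stood far above the rest. The highest, 38 fragments (95% counting interval 26.9 to 52.2), was 8.59 times the library mean, had a fold enrichment of 6.83 and lay in the middle of the row. Every fold given here is the authors' value within their own list. The local background was at the library mean for 15 of the 22 members. A lone control peak lay between members, at 35520432 to 35520742 with a pileup of 20. Outside the run the nearest control peak was 280 kb away on the left and 7.22 kb away on the right. Of the 17 other knockout peaks within 500 kb, 7 were knockout-only.

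A cluster of 3 runs lay close together on chromosome 3. The first run of the cluster, from 77005402 to 77689698, held 15 members over 684 kb, with pileups of 29, 39, 40, 27, 39, 29, 25, 19, 30, 22, 36, 37, 23, 32 and 44. The last of these, at 77689105 to 77689698, had the highest fold of the run, 8.30. The second began 35.2 kb farther on and ran from 77724884 to 78058747, with 8 members over 334 kb and pileups from 15 to 28. A lone knockout peak separated these runs, and it overlapped a control peak. Their 23 members thus extended over more than 1 Mb with a single position called in both genotypes. The next 578 kb held 26 knockout peaks, of which 18 overlapped control peaks. The third run of the cluster followed, from 78636278 to 78724707, with 9 members in 88.4 kb and pileups from 18 to 35. No control peak lay between the members of any of these 3 runs. Another run on this chromosome, far from the cluster, from 7714298 to 8020775, held 8 members over 306 kb with a median pileup of 35.

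**Figure D1:**
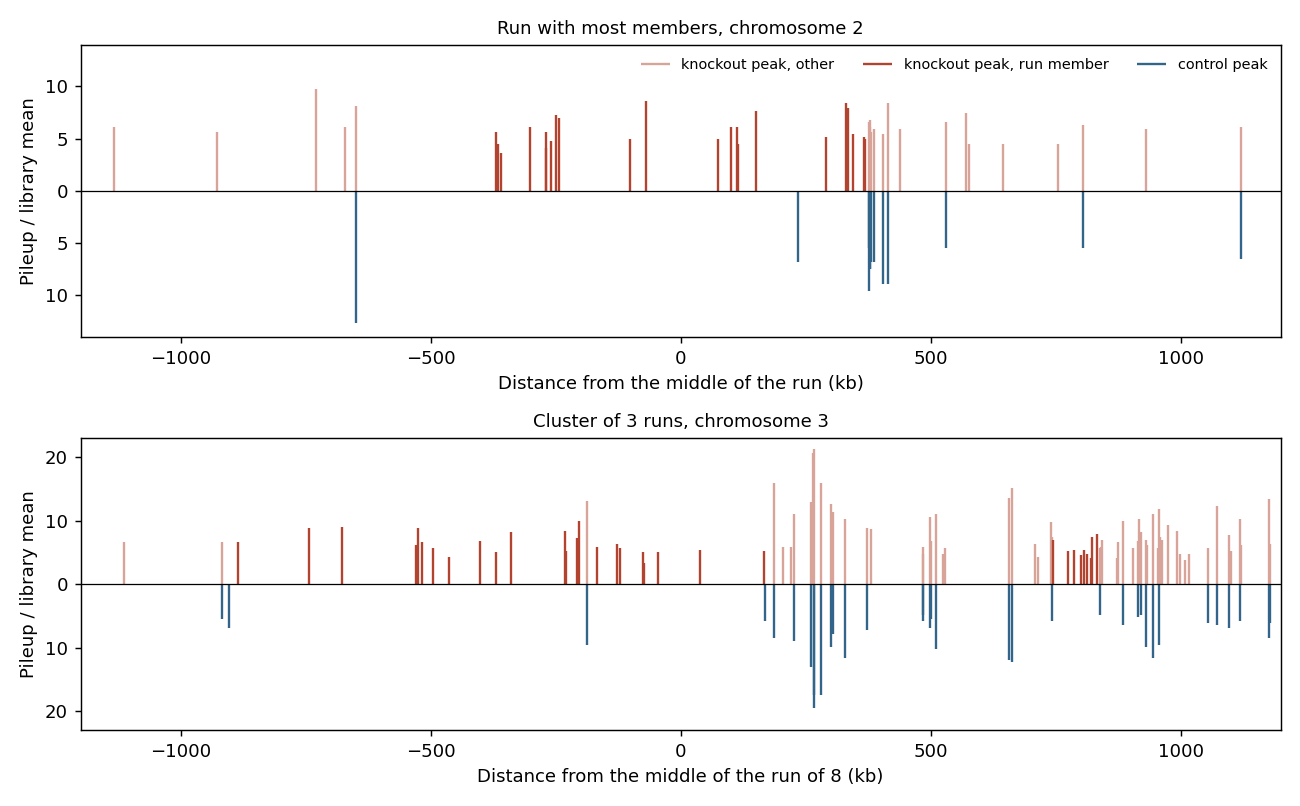
Peaks around the run with most members (upper panel) and around the cluster of 3 runs on chromosome 3 (lower panel). Each vertical line is a peak at its distance in kb from the middle of the run (lower panel, the run of 8), knockout peaks upward and control peaks downward, with its height the summit pileup divided by the library mean. Control peaks are missing over the members except for 1 control peak in the run of 22, and they lie beside many of the other knockout peaks.

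The run with the next largest number of members, on chromosome 8 from 52983876 to 53351523, held 19 over 368 kb. Its pileups were 31, 28, 33, 16, 29, 39, 31, 34, 22, 22, 22, 24, 26, 23, 69, 30, 37, 27 and 19. The 1 high member, at 53301437 to 53302034, had 69 fragments (53.7 to 87.3). Its fold of 11.5 was the largest of all 422 members. The nearest control peak to it was 76.4 kb away, and the whole run held none.

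Chromosome 12 carried the run with the third largest number of members, from 16757740 to 17306917. It had 16 members over 549 kb, but 335 kb of that span was a single gap without any knockout peak. Pileups were 32, 19, 26, 40, 25, 27, 22, 25, 32, 26, 38, 55, 23, 50, 45 and 34, with the higher values toward the right end. The member of 55 fragments (41.4 to 71.6), at 17206535 to 17207008, had a fold of 10.3 at a background equal to the library mean. A second run of this chromosome, from 128260501 to 128483125, placed 13 members in 223 kb. It was even in height, with 24, 24, 24, 21, 28, 23, 26, 24, 23, 26, 43, 33 and 29 fragments, and the member of 43 had a fold of 8.11. Only 5 of the 15 other knockout peaks within 500 kb overlapped a control peak. From 90939685 to 91101708 a further run held 8 members over 162 kb with a median pileup of 41, the highest of all runs. Its members had 42, 41, 19, 32, 46, 41, 30 and 46 fragments, and 7 of them were strong, meaning a −log10 q of at least 10. The fourth, from 86689967 to 87744797, spread 9 members over 1055 kb with a gap of 597 kb and 3 control peaks between them.

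On chromosome 19 a run of 13 members covered 57375616 to 57708416, a span of 333 kb. The pileups were 39, 20, 19, 51, 32, 30, 26, 54, 36, 29, 28, 33 and 27. Here the local background was 1.70 times the library mean, the highest median among the 41 runs. The 2 tallest members stood at 51 and 54, and the member with the highest fold, 6.09, was the one of 51 at 57454049. A dense run lay 739.8 kb to the right, from 58448182 to 58492644, where 8 members fell within 44.5 kb at a median gap of 1.35 kb. Between these runs lay 171 knockout peaks, of which 129 overlapped control peaks. The third run of the chromosome, from 23263684 to 23391533, had 9 members over 128 kb and 1 control peak between them.

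The remaining runs among the 10 with most members had 12 each. That on chromosome 6, from 77586290 to 79303054, was the widest of all at 1717 kb, of which 773 kb was a single gap. Its pileups were 31, 37, 30, 29, 19, 31, 27, 24, 29, 37, 25 and 26, and 1 control peak of 18 fragments lay inside. The highest fold in this run, 7.01, was at both members of 37 fragments. On chromosome 21, from 20393863 to 21616772, 12 members spread over 1223 kb with a gap of 609 kb. These had 24, 28, 26, 35, 25, 24, 25, 29, 23, 39, 23 and 19 fragments, and the member of 39 had a fold of 7.37. There the background was at the library mean for 11 of 12 members. The run on chromosome 4 from 142694359 to 143073663 spanned 379 kb with pileups of 32, 29, 31, 28, 32, 31, 29, 51, 28, 21, 17 and 19. Its member of 51 fragments (38.0 to 67.1), at 143003078 to 143003563, had a fold of 9.59. The run on chromosome 7 from 122050109 to 122250035 spanned 199.9 kb, with 39, 29, 27, 31, 38, 34, 22, 26, 29, 42, 31 and 22 fragments and no member at the lowest background. Its highest fold, 6.74, was at the member of 38 fragments that starts at 122094739. Together the 10 runs with most members held 146 of the 422.

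**Figure D2:**
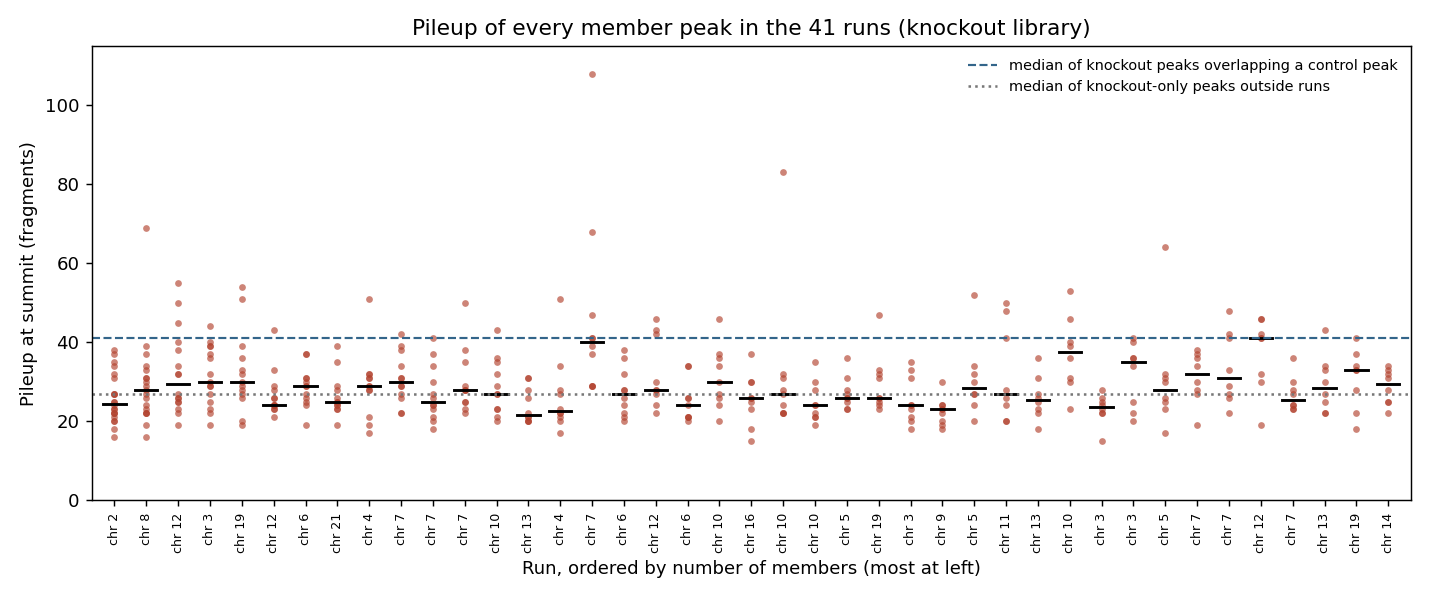
Summit pileup in overlapping fragments (vertical axis) of all 422 members, each a point, in the 41 runs (horizontal axis, most members at the left, named by chromosome), with a black bar at each run's median. The dashed line at 41 is the median of knockout peaks that overlap a control peak and the dotted line at 27 that of knockout-only peaks outside runs. Most points lie between the lines or below, and the run medians range from 21.5 to 41.

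Chromosome 7 held more runs than any other autosome, 7 with 69 members. Besides the run at 122 Mb there was a run of 12 from 17033909 to 17216529, with pileups from 18 to 41 over 183 kb. A run of 8 from 46574171 to 46801659 had a median of 32 fragments. From 49699039 to 49809410 another 8 members had pileups between 23 and 36. The run of 11 from 54152778 to 54537871 spanned 385 kb and held 1 control peak. Its tallest member, at 54331831 to 54332253, had 50 fragments (37.1 to 65.9) and a fold of 9.40. From 144331629 to 144512538 lay 8 members with a median pileup of 31 and a background of 1.28 times the library mean.

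The run with the tallest member was also on chromosome 7, from 85904741 to 86128381. Its 10 members, over 224 kb, had pileups of 29, 108, 29, 29, 39, 68, 47, 37, 41 and 41. All 10 were strong, which held for no other run, although the chromosome 12 run at 90.9 Mb had a higher median fold (7.44 against 5.26). The member of 108 fragments (88.6 to 130), at 85911412 to 85912111, had the highest pileup among the 422 at 24.4 times the library mean. The local background there was 3.19 times the library mean, so its fold was 7.21, below that of the tallest members on chromosomes 8 and 12. The nearest control peaks outside this run were 45.1 kb to the left and 84.8 kb to the right.

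Chromosome 10 held 5 runs with 46 members. The most compact, from 18513471 to 18579362, had 11 members in 65.9 kb, which themselves covered 6.94% of the span. From 54081474 to 54432681 there were 8 members with a median pileup of 37.5, and 7 of them were strong. From 57727818 to 57915478 there were 9, mostly between 22 and 32 fragments. The exception at the right end, at 57914749 to 57915478, had 83 (66.1 to 103) at a background of 3.19 times the library mean. The run from 102415445 to 102570091 had 9 members and 3 control peaks between them. The last, from 109335959 to 109874023, had 9 members over 538 kb in a stretch nearly bare of other peaks. Only 3 further knockout peaks lay within 500 kb, and the next control peak to the right was 1162 kb away.

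Chromosomes 5, 6 and 13 held 3 runs each. On chromosome 5 the run from 27921906 to 28052000 had 9 members in 130.1 kb with pileups from 23 to 36. That from 105237807 to 105499701 had 8, among them a tall one of 64 fragments (49.3 to 81.7) at 105489808. The 8 members from 120565046 to 121296591 lay far apart, with a median gap of 101.7 kb. On chromosome 6 a run of 9 from 155763022 to 156475702 had pileups from 20 to 34, and only 2 members were strong. A run of 10 from 161119938 to 161259844 was closer packed, with a median gap of 5.83 kb. On chromosome 13 there were 8 members from 61561044 to 62035863 and 8 from 85594634 to 85697698, with medians of 25.5 and 28.5 fragments. The 10 members from 71831216 to 72899883, over 1069 kb, had the lowest median pileup of any run, 21.5. No control peak lay within 200 kb of either end of that run (347 kb to the left and 207 kb to the right).

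The other runs were alone on their chromosome or nearly so. On chromosome 4 the run from 127003148 to 127485026 had 10 members with a median of 22.5 fragments, and 14 of the 22 other knockout peaks within 500 kb were knockout-only too. Chromosome 9 had 9 members from 65800681 to 65883651, with a median of 23 and only 1 strong member. On chromosome 11 the 8 members from 104188936 to 104840191 were divided by a gap of 575 kb. On chromosome 14 the 8 members from 50792753 to 50825693 formed the run with the smallest span, 32.9 kb. Chromosome 16 had 9 members from 16666890 to 16859042 with pileups from 15 to 37. No run was found on chromosomes 1, 15, 17, 18, 20 and 22. Chromosome 1 had the most knockout peaks of any autosome, 26765, and 21.8% of them were knockout-only. Chromosome 7 had fewer peaks, 18533, and a lower knockout-only share of 20.6%, yet 7 runs. Relative to the number of knockout peaks, however, chromosome 13 had more runs than chromosome 7, with 3 runs for 7178 peaks.

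Across the runs, members were far apart. The 41 runs spanned 16.2 Mb in all, 0.580% of the autosomal extent of the lists, with a median span of 262 kb. The peaks themselves covered 171 kb, or 1.06% of that length. Within runs the gap between neighbours had a median of 15.2 kb (quartiles 4.85 and 40.1), against 2.00 kb (0.704 and 5.63) between all neighbouring autosomal knockout peaks. Members lay at 26.0 per Mb and knockout peaks on the autosomes at 104 per Mb. Gaps over 100 kb numbered 46 of 381 and occurred in 21 of the 41 runs. At the other extreme 36 gaps were under 1000 bp. A run is thus a row of neighbours in the list and, in most places, not a continuous block of DNA.

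**Figure D3:**
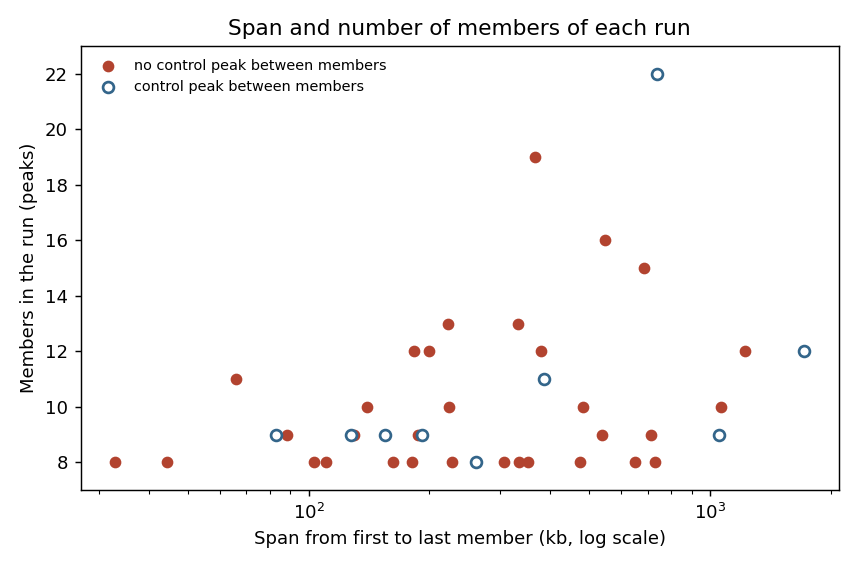
Number of members (vertical axis) against the span in kb from the first to the last member (horizontal axis, log scale) for the 41 runs, with open circles for the 9 runs that had control peaks between members. Spans range from 32.9 to 1717 kb, and runs of 8 or 9 members occur over most of that range.

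Control peaks between members were few. Only 13 (95% Poisson interval 6.92 to 22.2) lay inside the 41 runs, in 9 of them, or 22.0% of runs (exact binomial interval 10.6 to 37.6). This is 0.802 per Mb of run, against 91.9 control peaks of any kind per Mb over the autosomes. The rule fixes most of that lack, since a control peak on a member would have ended the run. Only control-only peaks can therefore lie between members, and these were 12.0% of autosomal control peaks (30731 of 256848). The 2 densities are thus not of like peaks. The 13 had pileups from 12 to 26, and the 1 with the highest pileup lay on chromosome 12 at 87233475 to 87233826. The highest fold among them, 5.86, and the only −log10 q of at least 10 were those of the peak on chromosome 19 at 23380309 to 23380711. The 3 in the chromosome 10 run at 102 Mb had 19, 13 and 12 fragments, and each lay within 2.5 kb of a knockout peak (2458, 1491 and 1974 bp away). Those in the chromosome 2 run and in the chromosome 5 run were 56.6 kb and 94.6 kb from the nearest knockout peak. All 13 were control-only, which the rule fixes. The distance from a member to the nearest control peak, which the rule also sets in large part, had a median of 65.3 kb (quartiles 23.8 and 161). Knockout-only peaks outside runs had a median distance of 1.66 kb. A control peak lay within 1000 bp of 7 of the 422 members (1.66%) and of 36.4% of knockout-only peaks outside runs.

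In height the members resembled other knockout-only peaks. The median pileup was 27 (27 to 28, quartiles 23 and 33), or 6.10 times the library mean, and it was 27 (quartiles 23 and 32) for the 68378 knockout-only peaks outside runs. The 221647 knockout peaks that overlap a control peak had a median of 41, and 34 of 422 members (8.06%) exceeded it. Members had a median length of 366 bp against 353 bp for knockout-only peaks outside runs and 518 bp for overlapping peaks. Strong members numbered 227 of 422, or 53.8% (48.9 to 58.6), against 46.4% outside runs. Among widely spaced peaks the shares were 53.1% (47.8 to 58.4) of members and 48.0% of other knockout-only peaks, which is inside the members' interval. Only 15 members had 50 fragments or more. At the ends of runs the members were somewhat taller, with a median of 29 fragments over 82 end members and 27 over 340 inner members.

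The local background of the members was low. It was at the library mean for 222 of 422 (52.6%), against 35.2% of knockout-only peaks outside runs and 25.4% of overlapping peaks. Among widely spaced peaks the difference was smaller, with 54.2% of members and 43.7% of other knockout-only peaks at the library mean. The median background was under 1.1 times the library mean in 33 runs. Among the other 8, 4 were on chromosome 7. A background over 2 times the library mean was found at 21 members and as the median of no run. Where MACS2 is given an input library as its control, values above the library mean are taken from that input. The settings used for these lists are not given in the sources used here.

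On a scale divided by the ratio of library means, members passed the control list's limit about as often as other knockout peaks. Each knockout pileup and background was divided by the ratio of library means. The median member then had 17.8 fragments, compared with a listed median of 25 in the control and a lowest listed value of 10. That median is over all autosomal control peaks, most of which overlap a knockout peak. Control-only peaks had a listed median of 19 (quartiles 17 and 21). The recomputed significance reached the lowest −log10 p of the control list, 3.24, for 417 of 422 members (98.8%). It did so for 98.9% of all knockout-only peaks and 99.7% of overlapping peaks as well, so this scale did not separate the classes. All these peaks had already been called at the knockout's depth, so the division cannot show which would be called at the control's depth. The caller's minimum peak width and the control's own input were not modelled.

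Weak and widely spaced knockout peaks were the ones most often missing from the control list, genome-wide. Among autosomal knockout peaks with 23 to 33 fragments, the interquartile range of the members, 41.4% (41.1 to 41.7) were knockout-only. When peaks were sorted into 4 classes by their mean gap to both neighbours, the knockout-only share rose from 16.5% at gaps up to 1.12 kb to 32.4% at gaps over 6.25 kb. Within the weakest class of pileup, 14 to 28 fragments, it went from 47.7% in the closest spacing to 56.7% in the widest. Of the members, 354 of 422 (83.9%) fell in the widest class of spacing, and 237 (56.2%) in the weakest class of pileup. The members are included in these shares.

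**Figure D4:**
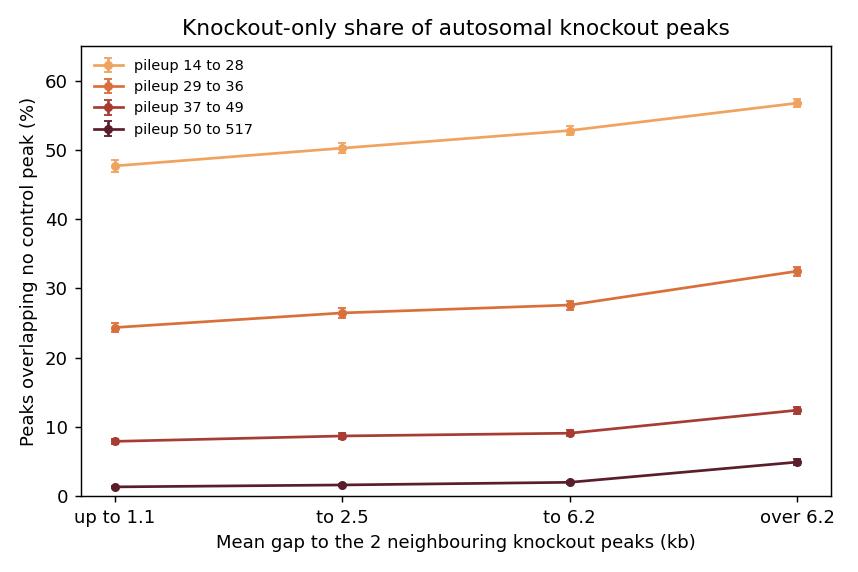
Share of autosomal knockout peaks that overlap no control peak, in percent (vertical axis), by the mean gap to the neighbouring knockout peaks in kb (horizontal axis, 4 classes of about equal size) and by summit pileup (lines, 4 classes). Bars are exact binomial 95% intervals for counting error only. Each line is higher at wide spacing than at close spacing, and the weakest peaks reach 56.7%.

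The surroundings of the runs differed from the autosomes in the same direction. Within 500 kb of the runs there were 2225 other knockout peaks and 1702 control peaks, a ratio of 1.31, against 1.13 over the autosomes. Of those knockout peaks 32.4% (30.5 to 34.4) were knockout-only, against the 23.7% of the whole list and near the 32.4% of all widely spaced peaks. By run the share ranged from 0% to 66.7% with a median of 38.1%, and it was above the autosomal share around 35 of 41 runs, counting members of neighbouring runs where they lay within 500 kb. It was highest around the chromosome 12 run at 128 Mb, where 10 of 15 were knockout-only. It was lowest around the chromosome 10 run at 109 Mb, where 0 of 3 were. Control-only peaks made up 9.28% of the control peaks nearby, against 12.0% overall. At 82 ends of runs the next knockout peak outward, which by the rule overlaps a control peak, had a median pileup of 39.5 in the knockout and 23.5 in the control. These pileups are not scaled for depth. Scaled by the library means, the median log2 ratio at these ends was 0.20 (0.09 to 0.34). The peaks lay a median of 21.5 kb from the run, and the farthest lay 1419 kb away. The peak that separates the neighbouring runs on chromosome 3 is counted at both of its sides.

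Peaks present in both lists had a slightly higher scaled pileup in the knockout near the runs than elsewhere. Over 1412 pairs of peaks within 500 kb of a run, the median log2 ratio of pileup, knockout over control and scaled by the library means, was 0.10 (0.08 to 0.12). It was 0.04 over 202907 autosomal pairs and 0.04 over the 145305 pairs of the same chromosomes that lay farther away. The medians correspond to ratios of 1.07 and 1.03. The rule used these peaks in part, since a knockout peak that overlaps a control peak ends each run. Without 79 pairs at the ends of runs, a comparison added after the results were seen, the median was 0.09 (0.07 to 0.12). The intervals reflect only how pairs scatter in these libraries. The scaled log2 ratio of local background had a mean of 0.10 near runs (SD 0.33) and 0.11 over all autosomal pairs (SD 0.36). Its medians were 2.4e-06 and 0.04. The caller's background is never below the library mean, so this ratio is 0 where both lists are at theirs. It cannot show a difference in input there. Without chromosome 7, also added afterwards, the median log2 ratio of pileup near runs was 0.08.

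Around single runs this ratio varied widely. The median was above that of the run's own chromosome at 26 runs and below it at 14. Its interval lay wholly above the chromosome's median at 5 runs and wholly below it at 0. The highest was 0.51 (0.16 to 0.79) over 15 pairs around the chromosome 12 run at 90.9 Mb, where the chromosome had 0.05. Next came the chromosome 7 run at 122 Mb with 0.39 (0.26 to 0.48) over 44 pairs, where the chromosome had 0.07. The other 3 of these 5 were the chromosome 3 runs at 7.7, 77.7 and 78.6 Mb, with 0.25, 0.30 and 0.30 and the chromosome at 0.03. The latter 2 share part of their pairs. Around the run of 22, on chromosome 2, the median was -0.22 (-0.64 to 0.21) over only 9 pairs. The run of 19 on chromosome 8 had -0.03 (-0.16 to 0.19) over 34 pairs. Both intervals include the median of the run's own chromosome, -0.09 and 0.04. The intervals around single runs describe the scatter of pairs within 1 library per genotype and are no test. Pairs at the ends of runs, which the rule uses, are included in these medians.

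**Figure D5:**
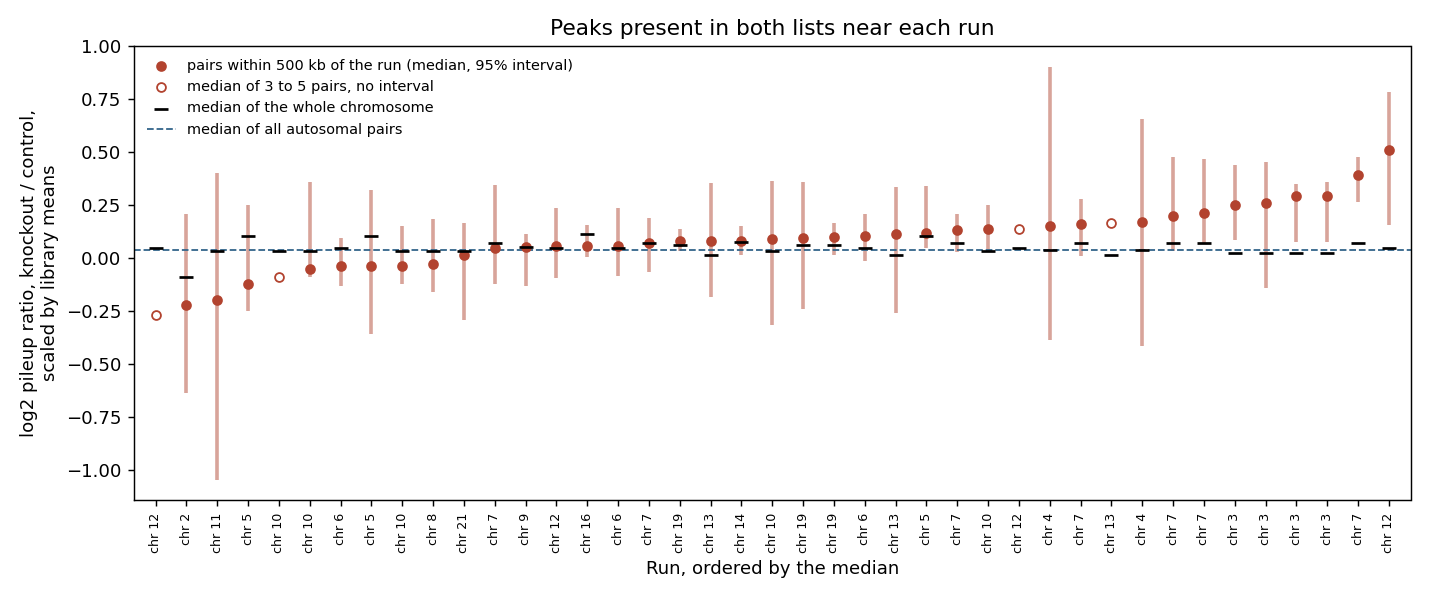
Median log2 ratio of pileup, knockout over control and scaled by library means (vertical axis), of peaks called in both lists within 500 kb of each run (horizontal axis, runs ordered by this median and named by chromosome). Vertical lines are 95% order-statistic intervals over pairs, open circles have 3 to 5 pairs and no interval, black ticks are the chromosome's median and the dashed line at 0.04 is the median of all autosomal pairs. Medians range from -0.27 to 0.51, and most intervals include the chromosome's median.

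Runs just at and just under the threshold of 8 had peaks of like height, and those of 8 had the larger median span. There were 14 runs of 8 and 35 runs of 7. Peaks in runs of 8 had a median pileup of 29.5 and 60.7% were strong, while peaks in runs of 7 had a median of 28 and 55.5% were strong. The median span was 245 kb for runs of 8 and 102 kb for runs of 7, and the median gap was 14295.5 bp and 10232 bp. The spans overlapped, from 32.9 to 732 kb for runs of 8 and from 23.3 to 1334 kb for runs of 7.

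Runs in the opposite direction were fewer, and most of them had a high background. By the same rule the control list had 11 runs of control-only peaks, with 133 members. In 7 of the 11 the median background was over 2 times the control's library mean, up to 33.9 times on chromosome 2 at 92263493 to 92325804, while no knockout run exceeded 1.70. Gaps in the control runs had a median of 1620 bp, against 15203 bp in the knockout runs. Their median fold was 2.67, against 4.61 for the knockout members. The 4 control runs with a background near the library mean were closer to the knockout runs. They held 9 members on chromosome 2 at 151126983 to 151326744, 8 on chromosome 4 at 8642545 to 8797295, 9 on chromosome 10 at 31953084 to 32087208 and 9 on chromosome 16 at 79447159 to 79642430. Their median pileups were 17, 18, 21 and 17, at gaps with medians from 11.1 kb to 13.6 kb (11119 to 13580 bp). Between their members lay 0, 2, 5 and 0 knockout peaks. These counts come from lists of unequal depth.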

How the data were processed

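The members and lists were chosen with earlier results of these data known. Reads were mapped to hg19 with BWA, FastQC was run and MACS2 called the peaks of each immunoprecipitated library, per the submitters' processing notes. Software versions, settings and the treatment of duplicates are not given in the sources used here. Per the file headers, the deposited lists give the summit pileup (a signal in whole overlapping fragments, not scaled between libraries), the fold enrichment (a ratio to local background) and −log10 p and −log10 q. The knockout list held 296521 peaks and the control list 261657. Lists were matched to samples by genotype words in their names.

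Python 3.11.15 with pandas 2.3.3, NumPy 2.4.6 and SciPy 1.17.1 was used. Overlap means at least 1 shared bp. Local background was solved from fold = (pileup + 1)/(background + 1), and the Poisson tail computed with it matched the listed −log10 p within 0.000329. Pairs are peaks that meet exactly 1 peak in the opposite list, in both directions. The functions were tested on simulated lists. All runs are described by position, and the 10 with most members (ties by span) in full. Runs or members named for a high, low or unusual value were chosen after their values were seen. Intervals are at the 95% level: exact Poisson for counts and pileups, Clopper-Pearson for shares, order statistics for medians. Counting intervals cover counting error only. Genes and sequences are not given, because the annotation at hand is of another build. Mitochondrial peaks and chromosomes X and Y are outside the rule.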

Additional observations from a re-analysis of the deposited data

Results flagged for a closer look

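Chromosomes X and Y are outside the autosomal rule. The same search there found 4 runs of knockout-only peaks, with 37 members, against 1 run of control-only peaks. On X a run of 12 members lay at 92219484 to 92952012 (median pileup 26.5) and a run of 8 at 141355368 to 141479460 (29.5). On Y there were 9 members at 4277221 to 6359096 (26) and 8 at 15363777 to 16942223 (23). No control peak lay between the members of these runs. Of the X peaks 35.3% were knockout-only. The control-only run, of 19 members on Y at 28724250 to 58912494, had a background of 3.30 times the library mean, against 1.00 to 1.04 times in the knockout runs.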

How the results depend on the processing

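Of 58 alternatives over 6 results, 39 stayed within 1.5 times (counts) or within the 95% interval of the reported value (medians and shares), 19 left it and 0 reversed. Counts and pileups could not reverse, and only the median log2 ratio of nearby pairs (the pair ratio) could. The 39 include the 417 members that passed on the divided scale, which cannot show what would be called at the control's depth. Leaving out chromosome 7 or the pairs that end runs was chosen after the results were seen. A minimum of 6 peaks gave 181 runs, 1297 members and a pair ratio of 0.063, and a minimum of 10 gave 17 runs and 220 members, by construction. With 50% reciprocal overlap there were 81 runs and 791 members, with control peaks in 38.3% of runs and a pair ratio of 0.065. Strong knockout peaks alone gave 10 runs, 95 members, a median pileup of 32, control peaks in 50% of runs and a pair ratio of 0.13. Of those 95 members 85 were among the 422. Equal numbers of peaks gave 19 runs, 195 members and a median pileup of 29. Where a control peak ended a run, 0% of runs held one, by construction. Pairs within 200 kb gave a ratio of 0.13. Where not stated, the cause was not tested. The depth of the immunoprecipitates could not be equalised from peak lists. No paired analysis was possible because the genotypes had 1 library each.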
